A study of Mus musculus with 20 samples.

Results

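The enzymes of amino acid breakdown and the urea cycle were followed in mouse liver as 47 genes, matched by symbol, out of 55487 genes in the count table. All 47 were found and had enough counts to be tested in every comparison. They were grouped by the amino acid that they degrade, which gave 6 genes of the urea cycle, 4 for ornithine and proline, 6 for glutamate, glutamine, aspartate and alanine, 5 for tyrosine, 6 for tryptophan, 5 for serine, threonine and glycine, 1 for lysine, 10 for the branched chain amino acids and 4 for histidine. In the pooled high-fat diets (HFD) against chow, 8 members rose and 1 fell, 19.1% of the 47 beside 9.75% of all genes tested. Between the HFD groups 0 members were called, where at most 0.17% of all genes were called in any pair.

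The liver is the main site where surplus dietary amino acids are taken apart. Transaminases pass the amino group to glutamate, glutamate dehydrogenase and aspartate transaminase deliver it as ammonia and aspartate, and the urea cycle turns both into urea, while the carbon skeletons go to glucose, ketone bodies or the citric acid cycle. Many of these enzymes are known to respond to protein intake, glucagon, glucocorticoids and the time of feeding.

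The study asked how fishmeal made from salmon by-products, as a protein source, compares with salmon filet and beef in obese mice. All mice were female C57BL/6J, with no transgene or deletion in any group, and their livers were taken at 28 weeks of age. One group stayed on chow throughout, and the others received HFD for 10 weeks followed by 10 weeks of HFD in which casein shared the protein equally with fishmeal, salmon filet or beef. The 3 test diets were made with equal protein, fat and carbohydrate, whereas chow took a larger share of its energy from protein and differed from them in fat, carbohydrate and ingredients, so that fat, protein level and protein source cannot be told apart in any comparison with chow. By the study's own analysis of the foods, fishmeal was richer in glycine, proline and hydroxyproline, and beef in histidine.

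By the labels, 5 mice had chow, 5 fishmeal, 6 salmon filet and 4 beef, with 1 library of polyadenylated RNA from each. Mouse 31 is labelled as salmon filet but named as beef in the header of the count table. The paper states that 5 mice per diet group were sequenced, which holds under the header and not under the labels. Because of this conflict, the main fits used mouse 31 only in the comparison of pooled HFD (n = 15) with chow (n = 5). The salmon filet group then held 5 mice. Libraries held 42526234 to 70266136 counts on genes, and the members took 1.87% to 2.72% of them. The share of counts on protein coding genes was 84.3% in beef mouse 35 and 93.2% to 95.6% in the other libraries, and that on mitochondrial genes ran from 5.89% to 10.4%. Values are given as CPM, counts scaled to library size with TMM factors, or as TPM, which are also scaled to gene length, where genes are compared with each other. Tests are edgeR's two-sided quasi-likelihood test, with Benjamini-Hochberg adjustment over all genes tested, and a gene was called at an adjusted p under 0.05.

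The libraries were checked with marker genes. The 7 hepatocyte markers summed to 102925 to 125005 CPM in chow-fed and 94379 to 118775 CPM in HFD-fed mice, while 4 adipocyte markers reached at most 0.215 CPM and 5 kidney markers at most 0.0876 CPM. Markers of T and B cells were lower in HFD-fed mice, with 5 of 7 called and sums of 5.65 to 11.2 CPM in chow-fed and 2.35 to 6.05 CPM in HFD-fed mice. The other lists gave 1 of 7 hepatocyte markers called (Cyp3a11, lower), 0 of 6 for Kupffer cells, 1 of 5 for endothelium, 0 of 5 for stellate cells, 1 of 4 for cholangiocytes, 1 of 5 for red blood cells, and Cela1, higher, as the only marker of exocrine pancreas that could be tested. Clock genes differed as well. All 6 genes of the day side of the clock rose in HFD-fed mice, among them Dbp, a transcription factor of clock output, from 0.734 to 2.28 CPM in chow-fed to 1.159 to 115 CPM in HFD-fed mice. A clock score, the mean log2 CPM of the 3 night side genes minus that of the 6 day side genes, was 1.269 to 3.46 in chow-fed and -4.01 to 2.46 in HFD-fed mice. The part of cell composition in the results below was not tested, and fewer cells of a type and less RNA per cell cannot be told apart in whole liver.

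Measured per gene length, the members spanned a wide range. 4-Hydroxyphenylpyruvate dioxygenase Hpd of tyrosine breakdown had the highest mean over all mice, with 2960.2 TPM, followed by argininosuccinate synthase Ass1 with 1833 TPM and carbamoyl phosphate synthetase Cps1 with 1702 TPM. The lowest were the serine dehydratase-like gene Sdsl with 5.78 TPM and the tryptophan enzyme Acmsd with 11.8 TPM. The members together summed to 15351 to 17295 TPM in chow-fed mice (median 16524 TPM) and to 14042 to 21377 TPM in HFD-fed mice (median 17925 TPM), so the ranges overlapped.

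Of the 47 members 9, or 19.1%, were called in HFD-fed against chow-fed mice, where 9.75% of the 17120 genes tested were called. Higher were Gpt, Got2, Gstz1, Tdo2, Agxt2, Pccb, Uroc1 and Ftcd, and lower was Acmsd. Of all genes, 4.54% were called higher and 5.21% lower. At an unadjusted p under 0.05 there were 21 members where 24.4% of all genes passed. The members' median log2 fold change (log2FC, HFD over chow) was 0.20, beside 0.005 over all genes tested, and 37 of 47 estimates lay above 0. Fold changes were small: Tdo2, Acmsd, Prodh2 and Bckdha were past 1.5-fold in either direction, and the last pair was not called. The 15 HFD-fed and 5 chow-fed mice overlapped for each of the 47 members, where 0.695% of all genes lay entirely higher and 0.888% entirely lower. With the clock score as a covariate 2 members were called, Agxt2 and Gldc, both higher, and 1.76% of all genes. Clock score and diet were related in these mice, so the score also absorbs some of what separates the diets. The count of 9 fell to 3 without chow mouse 2 or chow mouse 7 and to 4 without chow mouse 1.

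**Figure D1:**
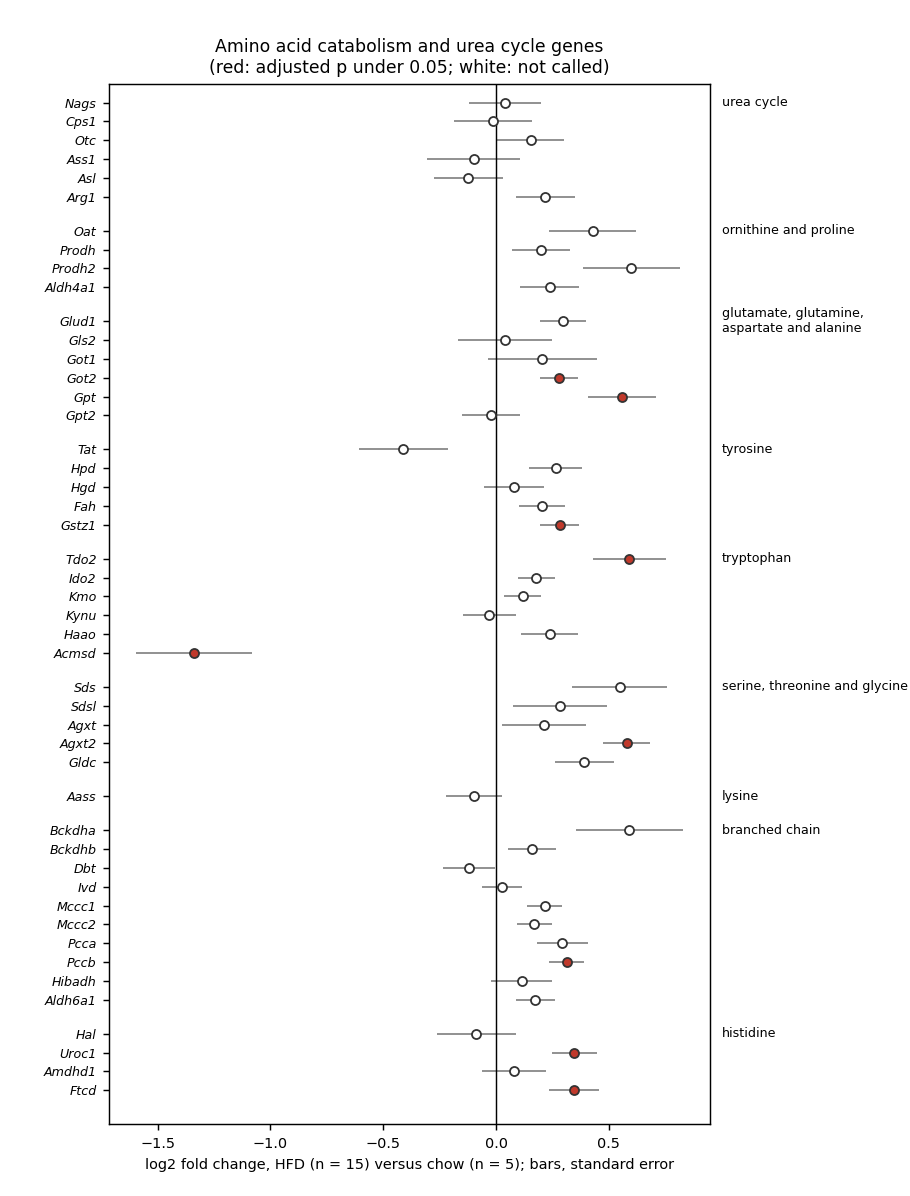
Log2FC of each of the 47 members in HFD-fed (n = 15) against chow-fed mice (n = 5), grouped by amino acid, with the standard error as a bar and the 9 called members in red. Most points lie to the right of 0, the 6 urea cycle genes lie close to it, and Acmsd stands far to the left at -1.34.

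Tryptophan breakdown held both the rise of its first enzyme and the fall of a late branch enzyme. Tryptophan 2,3-dioxygenase Tdo2 (chromosome 3 from 81957090 to 81976202, minus strand, in GRCm38) opens the ring of tryptophan and commits it to the kynurenine pathway. It was at 1320 CPM in chow mouse 1 and at 749.6, 885, 801 and 875 CPM in chow mice 2, 5, 7 and 10, against 939 to 1879.8 CPM (median 1343) in HFD-fed mice. Chow mouse 1 lay inside the HFD range, and the other 4 chow-fed mice lay below it. Its log2FC was 0.59 (SE 0.162, adjusted p = 0.023, above the chow mean in 15 of 15 mice). It was 0.76 without chow mouse 1 and 0.53 without chow mouse 2. The call was kept in 16 of the 20 repeats with a mouse left out and lost without chow mouse 2, 5, 7 or 10.

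Acmsd (chromosome 1 from 127729413 to 127767978, plus strand, in GRCm38) encodes the decarboxylase that takes a kynurenine intermediate towards full oxidation and away from quinolinate, the precursor of NAD. Chow mice 1, 2, 5, 7 and 10 had 32.9, 30.5, 14.99, 24.2 and 17.6 CPM. With fishmeal, mice 12, 13, 14, 16 and 20 had 14.0, 5.601, 5.85, 18.1 and 4.05 CPM. All chow-fed mice but 5 and 10 lay above every HFD-fed mouse, and fishmeal mouse 16 was the highest of the HFD-fed mice. With salmon filet, mice 22, 23, 25, 26 and 27 had 12.1, 10.4, 13.9, 8.11 and 6.17 CPM, beef mice 32, 35, 39 and 40 had 13.2, 6.61, 7.04 and 7.62 CPM, and mouse 31 had 10.4 CPM. The mean fell from 24.05 ± 7.83 CPM (SD, n = 5) in chow-fed to 9.55 ± 4.01 CPM (SD, n = 15) in HFD-fed mice, a log2FC of -1.34 (SE 0.255, adjusted p = 0.00163, below the chow mean in 15 of 15 mice). It was called without each of the 20 mice in turn. With the clock score as covariate the log2FC was -0.87 (adjusted p = 0.258). Clock score and diet were related in these mice, and the part of each in Acmsd was not tested.

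The remaining tryptophan genes were not called. Their log2FC values were 0.18 for indoleamine dioxygenase Ido2, 0.12 for kynurenine monooxygenase Kmo, -0.03 for kynureninase Kynu and 0.24 for Haao, which makes the substrate of Acmsd. Quinolinate phosphoribosyltransferase Qprt, which takes the other branch to NAD and stands outside the 47 genes, had a log2FC of 0.23 (adjusted p = 0.355). Tdo2, at the entry of the pathway, and Acmsd, at its branch point, were thus the 2 of 6 members called, in opposite directions.

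Promoter sequence is shown for Agxt2, the member with the smallest adjusted p. It is the 250 bases before the first transcription start listed by RefSeq on GRCm38.p6, plus strand, at chr15:10358283-10358532, with the match to a searched motif in capitals.
Agxt2: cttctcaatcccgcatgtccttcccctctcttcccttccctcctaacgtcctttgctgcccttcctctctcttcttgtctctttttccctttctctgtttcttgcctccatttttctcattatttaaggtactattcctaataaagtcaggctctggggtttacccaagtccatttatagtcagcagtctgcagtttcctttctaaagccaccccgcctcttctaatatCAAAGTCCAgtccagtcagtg
The capitals mark CAAAGTCCA, a sequence known for the liver factor HNF4. Promoter entries were matched for 37 of the 47 members, and 27025 promoters were searched on both strands over the same 250 bases. CAAAGTCCA was present in 0.381% of all promoters and in that of Agxt2 alone among the members, and TGACG, the core of the cAMP response element, in 17.9% of all promoters and 4 of the members'. The glucocorticoid receptor core TGTTCT was in 16.2% of all promoters and 4 of the members' (Agxt, Bckdhb, Pccb and Haao), the E-box CACGTG in 6.05% and 2 (Ass1 and Mccc2), and the C/EBP site TTGCNNCAA in 1.78% and 1 (Bckdha). The D-box TTATGTAA, read by clock output factors such as Dbp, was in 0.862% of all promoters and 0 of the members'. The HNF1 site was in 0.0629% and 1 (Prodh2), and the PPAR direct repeat in 0.037% and 0. None of these 8 motifs searched contains another, and a match describes the letters in this window and no binding.

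Among the genes of serine, threonine and glycine, the mitochondrial transaminase Agxt2 rose, and all 5 estimates lay above 0. Agxt2 (chromosome 15 from 10358532 to 10410153, plus strand, in GRCm38) moves amino groups between alanine and glyoxylate and also handles beta-aminoisobutyrate and methylated arginines. Chow mice 1, 2, 5, 7 and 10 had 107, 89.2, 104, 84.3 and 99.5 CPM. With fishmeal, mice 12, 13, 14, 16 and 20 had 171, 124, 152, 167 and 145 CPM, and with salmon filet, mice 22, 23, 25, 26 and 27 had 143, 117, 144, 156 and 138 CPM. Each of these 10 mice lay above every chow-fed mouse. Beef mice 32, 39 and 40 had 179, 144 and 149.9 CPM, and beef mouse 35, with 105 CPM, was the only HFD-fed mouse inside the chow range. The mean rose from 96.8 ± 9.72 CPM (SD, n = 5) to 145 ± 19.7 CPM (SD, n = 15), a log2FC of 0.58 (SE 0.105, adjusted p = 0.00105, above the chow mean in 15 of 15 mice). It was called without each of the 20 mice in turn and with the clock score as covariate (log2FC 0.62, adjusted p = 0.0174).

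Glycine decarboxylase Gldc, the first subunit of the glycine cleavage system, had a log2FC of 0.39 (adjusted p = 0.0589) and was not called, but had 0.71 (adjusted p = 0.00471) with the clock score as covariate. Serine dehydratase Sds, which makes pyruvate from serine, had 0.55 (adjusted p = 0.106), and Sdsl and the peroxisomal glyoxylate transaminase Agxt had 0.28 and 0.21. Sds shares 21.3% of its exon bases with Plbd2 on the other strand, and Plbd2 had a similar mean count of 3121 against 2979 for Sds. Whether reads were counted by strand is not stated for these files, so the value of Sds is uncertain.

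Among the genes of glutamate, glutamine, aspartate and alanine the transaminases Gpt and Got2 rose, and the form of each in the other compartment was not called. Alanine transaminase Gpt (chromosome 15 from 76695716 to 76699686, plus strand) makes pyruvate from alanine. It was at 155, 181, 202, 149.6 and 225 CPM in chow mice 1, 2, 5, 7 and 10 and at 185 to 368 CPM (median 269) in HFD-fed mice, so that the groups overlapped between 185 and 225 CPM. Its log2FC was 0.56 (SE 0.151, adjusted p = 0.0212, above the chow mean in 15 of 15 mice). Its mitochondrial relative Gpt2 had -0.02.

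Mitochondrial aspartate transaminase Got2 (chromosome 8 from 95864134 to 95888547, minus strand) was at 467, 493, 590.5, 493 and 612 CPM in chow mice 1, 2, 5, 7 and 10 and at 557 to 794 CPM (median 643) in HFD-fed mice. Chow mice 5 and 10 lay inside the HFD range. The log2FC was 0.28 (SE 0.0831, adjusted p = 0.035, above the chow mean in 15 of 15 mice). Got2 is 99.1% identical to the pseudogene Got2-ps1 over 1293 bases, which drew 3.92% as many counts and had a log2FC of 0.29, so reads could have been split between them. The cytosolic form Got1 had 0.20 (adjusted p = 0.653), with the widest spread of this group.

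Glutamate dehydrogenase Glud1 (chromosome 14 from 34310727 to 34345265, plus strand), which releases ammonia from glutamate, was at 858, 737, 800.2, 817 and 783 CPM in chow mice 1, 2, 5, 7 and 10. In HFD-fed mice it was at 721 to 1121 CPM (median 1021), and the log2FC was 0.29 (adjusted p = 0.0671), not called. All 5 fishmeal-fed mice, at 1104, 964, 1113, 1102 and 1040 CPM for mice 12, 13, 14, 16 and 20, lay above every chow-fed mouse. Glud1 is 97.6% identical to Glud-ps over 656 bases, which drew 0.804% as many counts. Glutaminase Gls2, which releases the amide group of glutamine, had a log2FC of 0.04.

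In tyrosine breakdown Gstz1 rose, and of the other genes 3 estimates lay above 0 and that of the first enzyme below. Gstz1 (chromosome 12 from 87147165 to 87164723, plus strand) isomerises maleylacetoacetate in the next to last step. It had 699, 584, 690.4, 629 and 716 CPM in chow mice 1, 2, 5, 7 and 10 and 697 to 1009 CPM (median 819.6) in HFD-fed mice, with chow mice 1 and 10 inside the HFD range. The log2FC was 0.28 (SE 0.0865, adjusted p = 0.0408, above the chow mean in 15 of 15 mice). It shares 9.14% of its exon bases with Pomt2 on the other strand, which had 1147 counts on average against 42943 for Gstz1. Tyrosine transaminase Tat, the first enzyme and a classic glucocorticoid target, had -0.41 (adjusted p = 0.201), Hpd 0.26 (adjusted p = 0.163), fumarylacetoacetase Fah 0.20 and homogentisate dioxygenase Hgd 0.08.

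Of the 10 branched chain genes, 9 estimates lay above 0 and Pccb rose. Pccb (chromosome 9 from 100982032 to 101034898, minus strand) is the beta subunit of propionyl-CoA carboxylase, which takes up the propionyl-CoA left by valine and isoleucine. Chow mice 1, 2, 5, 7 and 10 had 104, 109, 125, 107 and 115 CPM, and HFD-fed mice had 118 to 174 CPM (median 142). Only chow mouse 5 lay inside the HFD range. The log2FC was 0.31 (SE 0.0774, adjusted p = 0.012, above the chow mean in 15 of 15 mice), and the call held without each of the 20 mice. Pcca, the alpha subunit, had 0.29 (adjusted p = 0.1), the carboxylase subunits of leucine breakdown Mccc1 and Mccc2 had 0.22 (adjusted p = 0.0799) and 0.17 (adjusted p = 0.182), and Aldh6a1 and Hibadh of valine breakdown had 0.17 and 0.11. Pcca shares 4.63% of its exon bases with Ggact on the other strand, which had 2895 counts on average against 3753.

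The branched chain keto acid dehydrogenase, which carries out the committed step, had no subunit called. Its genes had log2FC values of 0.59 for Bckdha (adjusted p = 0.119), 0.16 for Bckdhb and -0.12 for Dbt, and the leucine enzyme Ivd had 0.03. Bckdha shares 61.7% of its exon bases with B3gnt8 on the other strand, which had 16.9 counts on average. Since the strand setting of the counts is not stated, the value of Bckdha is uncertain, like that of Sds. Chow mouse 1 had 44.4 CPM of Bckdha, and the other chow-fed mice had 92.3 to 133 CPM.

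In histidine breakdown the second and the last enzyme rose. Urocanase Uroc1 (chromosome 6 from 90333284 to 90364551, plus strand) had 524, 550.1, 585, 545 and 571 CPM in chow mice 1, 2, 5, 7 and 10 and 569.8 to 909 CPM (median 679) in HFD-fed mice. Chow mice 5 and 10 lay just inside the HFD range. The log2FC was 0.35 (SE 0.0997, adjusted p = 0.0291, above the chow mean in 15 of 15 mice). Ftcd (chromosome 10 from 76575648 to 76590338, plus strand), which hands the formimino group to folate, had 263, 306, 329, 277 and 341 CPM in the same chow mice and 295 to 485 CPM (median 394) in HFD-fed mice, a log2FC of 0.34 (SE 0.109, adjusted p = 0.0459). It was above the chow mean in 14 of 15 mice, and its call was kept in 7 of the 20 repeats with a mouse left out. Histidine ammonia lyase Hal, the first enzyme, had -0.09 and Amdhd1 0.08, neither of them called.

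**Figure D2:**
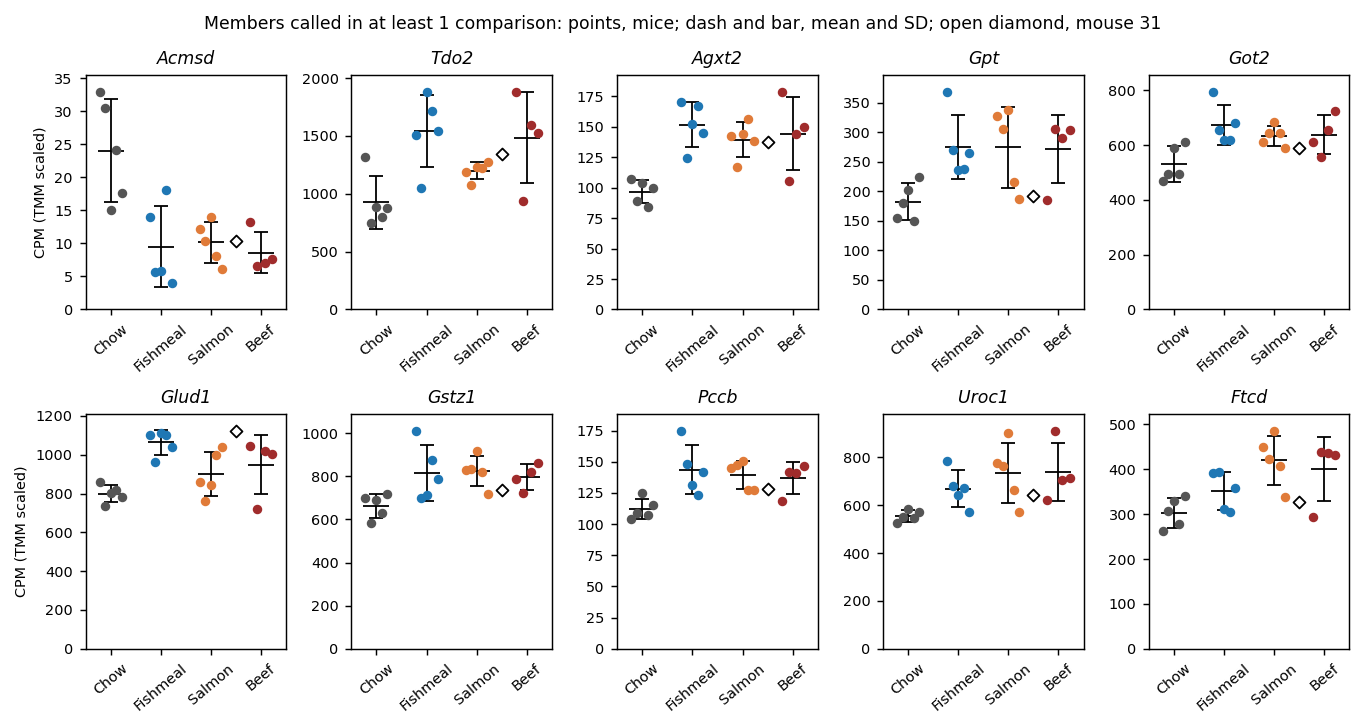
CPM of the 10 members called in at least 1 comparison, by labelled diet, with 1 point per mouse, the mean as a dash and the SD as a bar; each axis starts at 0 and mouse 31, whose diet is in conflict, is an open diamond. Acmsd is the only member of the 10 that lies lower in the HFD groups. For the others most chow-fed mice lie in the lower part of the range, with overlap. For Tdo2 chow mouse 1 lies amid the HFD-fed mice, and for Glud1 beef mouse 35 lies below every chow-fed mouse.

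None of the 6 urea cycle genes was called in any comparison with chow. In HFD-fed mice the log2FC values ran from -0.12 for argininosuccinate lyase Asl to 0.22 for arginase Arg1, with a median of 0.01. At an unadjusted p under 0.05 there were 0 of 6, where 24.4% of all genes passed. Arg1 (chromosome 10 from 24915221 to 24927484, minus strand), which releases urea, had 887, 780.4, 779.9, 674 and 744 CPM in chow mice 1, 2, 5, 7 and 10 and 607 to 1182 CPM (median 870.3) in HFD-fed mice. The HFD range enclosed all chow-fed mice (adjusted p = 0.321, 95% interval of the log2 difference -0.04 to 0.47). Nags, which makes the activator of Cps1 and overlaps the antisense gene Gm11586 with 7.01% as many counts, had 0.04, Cps1 -0.01, ornithine transcarbamylase Otc 0.15 and Ass1 -0.10. Ass1 is 99.5% identical to the pseudogene Gm5424 over 1240 bases, which drew 16.7% as many counts. The sum of both was 2146 ± 408 CPM (SD, n = 5) in chow-fed and 2024 ± 634 CPM (SD, n = 15) in HFD-fed mice.

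The 4 genes of ornithine and proline all had estimates above 0 and none was called. Prodh2 (chromosome 7 from 30493622 to 30513402, plus strand), which oxidises hydroxyproline, had the highest estimate of all 47 members, 0.60 (SE 0.215, adjusted p = 0.0808). It had 55.3, 113, 133, 90.9 and 119 CPM in chow mice 1, 2, 5, 7 and 10 and 80.1 to 260.1 CPM (median 159.8) in HFD-fed mice. Only chow mouse 1 lay below the HFD range, and without it the log2FC was 0.45. Chow mouse 1 also had the highest share of mitochondrial counts, 10.4%, whose part was not tested. Ornithine transaminase Oat had 0.43 (adjusted p = 0.172), Aldh4a1 0.24 and proline dehydrogenase Prodh 0.20. For lysine, the first enzyme Aass (chromosome 6 from 23072173 to 23132986, minus strand) had 365, 247, 248, 270.2 and 286 CPM in the chow mice and 205 to 361 CPM (median 255) in HFD-fed mice. It was not called, with a log2FC of -0.10 (adjusted p = 0.681), and 6 of 15 HFD-fed mice lay above the chow mean.

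Each diet was then set against the same 5 chow-fed mice, so the 3 sets of values below share their controls. Fishmeal gave 2 members called, Agxt2 and Glud1, both higher, where 3.38% of 16471 genes were called. Salmon filet gave 4 (4.42% of 16475 genes), with Agxt2, Pccb and Ftcd higher and Acmsd lower. Beef gave 1 (2.48% of 16559 genes), Acmsd lower. In shares of the 47 members these are 4.26%, 8.51% and 2.13%, which are near the shares of all genes for fishmeal and beef. At an unadjusted p under 0.05 there were 14, 21 and 15 members, where 16.9%, 23.8% and 17.8% of all genes passed. Every fishmeal-fed mouse lay above every chow-fed mouse for 6 members (Glud1, Got2, Gpt, Agxt2, Mccc1 and Aldh6a1), where 2.78% of all genes lay entirely higher and 3.13% entirely lower. With salmon filet these were 6 higher (Gstz1, Haao, Agxt2, Gldc, Bckdhb and Pccb; 3.85% of all genes) and 1 lower (Acmsd; 4.42%), and with beef 2 higher (Gstz1 and Uroc1; 3.79%) and 1 lower (Acmsd; 4.43%). Mouse 31, labelled salmon filet and left out here, had 452.2 CPM of Haao, inside the chow range. It had 40.6 CPM of Bckdhb, below every chow-fed mouse, so both separations hold only without it. The median log2FC of the members was 0.20 (fishmeal), 0.21 (salmon filet) and 0.17 (beef), beside -0.006, 0.012 and -0.007 over all genes. Of the 47 estimates 32 were above 0 with every diet, 6 below 0 with every diet and 9 mixed.

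The estimates of Acmsd were of similar size with every diet, though that with fishmeal was not called. Its log2FC was -1.35 with fishmeal (SE 0.388, adjusted p = 0.0817), -1.257 with salmon filet (SE 0.255, adjusted p = 0.0251) and -1.48 with beef (SE 0.284, adjusted p = 0.0213). The fishmeal-fed mice had the widest spread, 9.51 ± 6.16 CPM (SD, n = 5), beside 10.2 ± 3.09 CPM (SD, n = 5) with salmon filet and 8.62 ± 3.08 CPM (SD, n = 4) with beef. Salmon-fed and beef-fed mice lay below every chow-fed mouse.

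The rise of Agxt2 was 0.65 with fishmeal (SE 0.111, adjusted p = 0.00782) and 0.52 with salmon filet (SE 0.0969, adjusted p = 0.0193), and its estimate with beef was 0.58 (SE 0.146, adjusted p = 0.0668). Beef mouse 35 set the lower end of the beef group. Glud1 rose by 0.41 with fishmeal (SE 0.0934, adjusted p = 0.0333), from 799 ± 44.3 CPM (SD, n = 5) to 1065 ± 63.6 CPM (SD, n = 5), and had estimates of 0.17 with salmon filet (adjusted p = 0.357) and 0.24 with beef (adjusted p = 0.354). Salmon filet gave 0.47 for Ftcd (SE 0.109, adjusted p = 0.0368) and 0.31 for Pccb (SE 0.0791, adjusted p = 0.0471), where beef gave 0.40 and 0.28 and fishmeal 0.21 and 0.35. With mouse 31 counted as salmon filet, as labelled, Ftcd was not called and Gldc was. Leaving out single mice changed these calls, and the shares of all genes called in these repeats are not given here. Without chow mouse 2 or 7 the counts were 1 for fishmeal, 1 for salmon filet and 0 for beef. Fishmeal gave 1 without chow mouse 5 or fishmeal mouse 14 or 20 and 4 without fishmeal mouse 13. Salmon filet gave 1 without salmon mouse 26 and 2 without salmon mouse 22, 23 or 25. Beef gave 0 without beef mouse 39 or 40 and 4 without beef mouse 32. Without beef mouse 35 the 1 call for beef was Agxt2. Acmsd was thus called for beef in 4 of the 9 repeats with a mouse left out. With the clock score as covariate 0 members were called with any of the diets. Calls in 1 diet and not in another do not show a difference between diets, which was tested directly as follows.

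**Figure D3:**
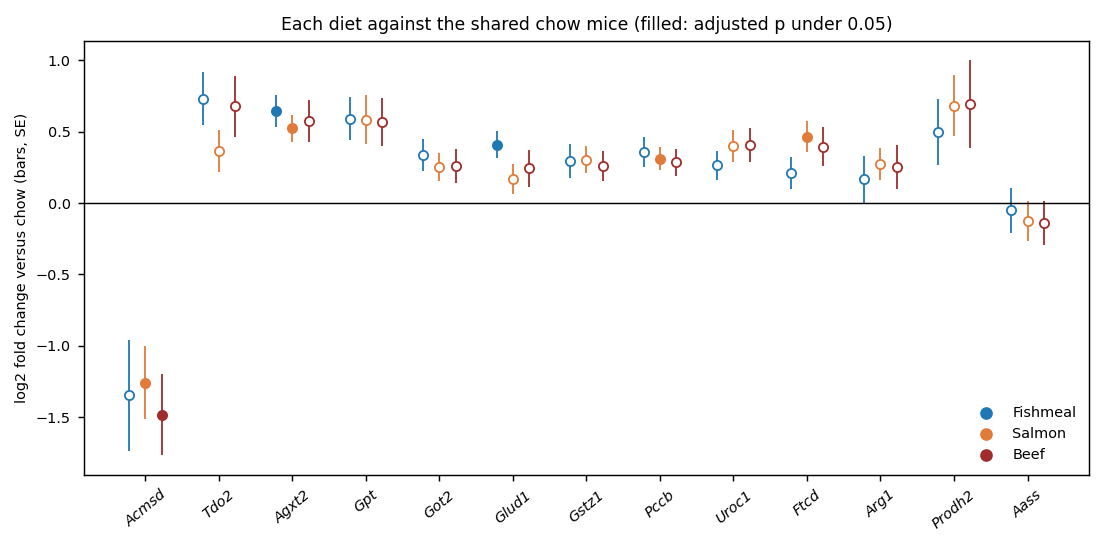
Log2FC against the shared chow-fed mice with fishmeal (n = 5), salmon filet (n = 5) and beef (n = 4), with the standard error as a bar, for the 10 members called in at least 1 comparison and for Arg1, Prodh2 and Aass; filled points are called. The 3 diets lie on the same side of 0 for each of these 13 genes.

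Between the diets 0 members were called, by edgeR, DESeq2 or limma on TPM. Among all genes 0.17% were called in fishmeal against salmon filet, 0.00607% in fishmeal against beef and 0% in salmon filet against beef, and 0.106% differed in a joint test of the 3 HFD groups. At an unadjusted p under 0.05, 3 of 47 members passed between fishmeal and salmon filet (Glud1, Tdo2 and Haao), 0 between fishmeal and beef, 0 between salmon filet and beef and 1 in the joint test (Haao), where 5.16%, 2.33%, 3.92% and 3.47% of all genes did. Haao, the enzyme before Acmsd, had the largest difference of any pair, a log2FC of -0.43 in fishmeal against salmon filet (adjusted p = 0.632, 95% interval -0.69 to -0.17). Mouse 31, left out of this fit, had 452.2 CPM of Haao, below every other mouse labelled salmon filet. With mouse 31 left out, Aldh6a1 was the only member with no overlap in a pair of diets, being higher in fishmeal-fed than in salmon-fed mice. The gap was narrow, from 536.6 CPM in salmon mouse 25 to 538.4 CPM in fishmeal mouse 13. Mouse 31, labelled salmon filet, had 570.1 CPM of Aldh6a1, inside the fishmeal range. Of all genes, 0.437% lay entirely higher in fishmeal against salmon filet and 0.758% lower. These shares were 0.364% and 0.576% for fishmeal against beef and 0.75% and 0.732% for salmon filet against beef, with 0 members in either. Tdo2 had 0.36 in fishmeal against salmon filet (adjusted p = 0.92, 95% interval 0.08 to 0.65) and Glud1 0.24 (adjusted p = 0.92, 95% interval 0.02 to 0.46).

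The enzymes of the amino acids that differed between the foods were compared by their intervals, which use a normal approximation and are narrower than the test. Gldc of glycine breakdown had a log2FC of -0.04 in fishmeal against salmon filet (95% interval -0.33 to 0.26) and 0.16 against beef (-0.20 to 0.53). Prodh, the first enzyme of proline breakdown, had -0.27 (-0.56 to 0.02) and -0.16 (-0.41 to 0.09), and Prodh2 of hydroxyproline breakdown had -0.18 (-0.57 to 0.20) and -0.20 (-0.76 to 0.36). Each of these 6 intervals contained 0. Of all 47 members, 42 intervals contained 0 in fishmeal against salmon filet, with Glud1, Tdo2, Haao, Aldh6a1 and Ftcd as the exceptions, and 47 did in each of the other pairs. Hal of histidine breakdown had 0.10 in fishmeal against beef (-0.34 to 0.55) and 0.22 in salmon filet against beef (-0.23 to 0.66). Over the 47 members the median standard errors of these log2 differences were 0.151 for fishmeal against salmon filet and 0.189 for fishmeal against beef. For salmon filet against beef the median was 0.161. Differences of this order could not be detected. The larger -0.43 of Haao in fishmeal against salmon filet was not called either (adjusted p = 0.632), so larger differences could be missed too.

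Further genes of the pathway stand outside the 47. Of 48 other enzymes of amino acid breakdown, 44 could be tested and 6 rose in HFD-fed mice (13.6%, where 4.54% of all genes were called higher). Among these, Dhtkd1, a subunit of the 2-oxoadipate dehydrogenase of lysine and tryptophan breakdown, had a log2FC of 0.67 (adjusted p = 0.00187), and Gcdh, which takes the next step, had 0.26 (adjusted p = 0.0364). Hydroxyacid oxidase Hao1, which makes glyoxylate, had 0.52, and Hoga1, the last enzyme of hydroxyproline breakdown, had 0.35. Ppm1k, the phosphatase that activates the branched chain keto acid dehydrogenase, had 0.68 and the asparaginase Asrgl1 0.42. The list's median over the genes tested was 0.09.

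Of 26 transporters of amino acids and urea cycle intermediates, 24 could be tested, 3 rose and 1 fell (16.7% called, beside 9.75% of all genes). Higher were the liver sodium-coupled carrier Slc38a4 at 0.41, the lysosomal and proton-coupled Slc36a1 at 0.47 and Slc22a15 at 0.48, and lower was the GABA and taurine carrier Slc6a13 at -0.27. Of 20 regulators, 5 rose and 1 fell (30% called). The glucocorticoid receptor gene Nr3c1 had a log2FC of 0.28, Klf15, a factor known to drive amino acid breakdown, 0.65, Cebpa 0.48, Ppara 0.85 and the mitochondrial deacetylase Sirt3 0.44, and Atf4, the factor of the amino acid deprivation response, had -0.42. Among 10 targets of fasting and glucagon only Pdk4 was called, with -1.29 (10% of the list, beside 9.75% of all genes). The median of these 10 was 0.23 and 7 estimates lay above 0. Of the 10, 5 passed an unadjusted p under 0.05, where 24.4% of all genes did. Among these 5 were Lpin1 at 0.93, Cpt1a at 0.40 and Ppargc1a at 0.33. Pck1 had a log2FC of 0.05 and G6pc of -0.50.

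Liver zonation was read from markers outside the members, since urea cycle genes lie near the portal vein. Of 8 periportal markers, Igfbp2 and Cdh1 were called lower, with a log2FC of -1.05 and -1.261, and 3 estimates lay above 0 and 5 below. Of 10 pericentral markers, Cyp1a2, Axin2 and Tbx3 were called lower and Lect2 higher, and 6 estimates lay above 0 and 4 below. These are 25% and 40% of the lists called, beside 9.75% of all genes. The periportal markers summed to 4747 to 5483 CPM in chow-fed and 4452 to 6544 CPM in HFD-fed mice, and the pericentral markers to 7472 to 10946 CPM and 9363 to 14626 CPM. Their part in the members' values was not tested.

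Mice on HFD differed widely from each other in some members and little in others. Over the 15 HFD-fed mice the coefficient of variation was lowest for Kmo, 8.61%, Got2, 9.196%, and Aldh6a1, 9.85%, and highest for Acmsd, 42.0%, Got1, 37.6%, and Gls2, 32.4%. Tat, Got1 and Gls2 were all at their lowest in fishmeal mice 14 and 20. Tat was at 364 and 405 CPM there, against 554 to 1086 CPM in the HFD-fed mice other than fishmeal mouse 13 and salmon mouse 27, which had 436 and 547 CPM. Got1 was at 92.6 and 114 CPM in fishmeal mice 14 and 20 and at 393 CPM in fishmeal mouse 12. Salmon mouse 25 had 865 CPM of Tat and 264 CPM of Got1. Clock scores were -2.29 and -3.16 in fishmeal mice 14 and 20, 0.403 in fishmeal mouse 12 and -3.37 in salmon mouse 25, and their part in these values was not tested. Fishmeal mouse 12 and salmon mouse 25 had the highest median deviations over the members, 0.379 and 0.298 on the log2 scale.

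**Figure D4:**
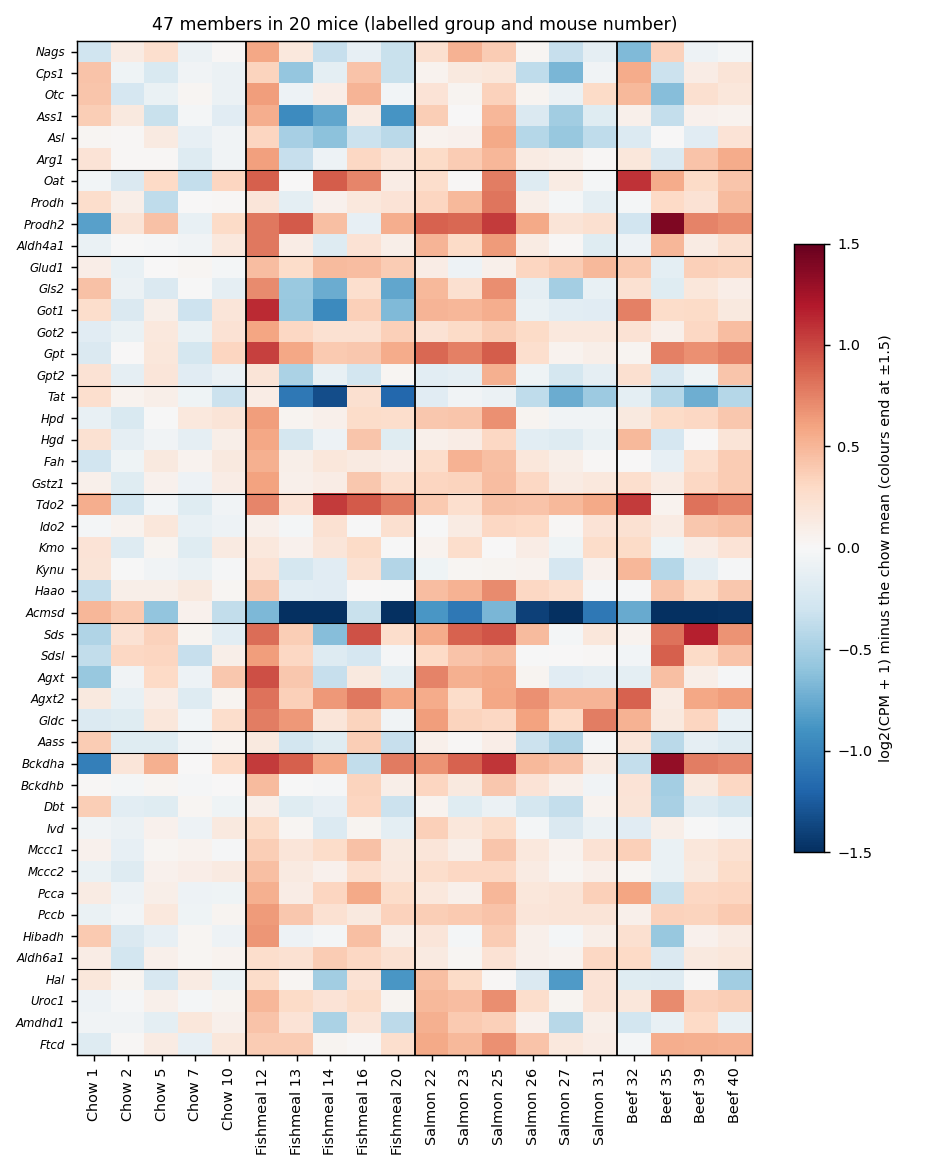
Colour map of log2(CPM + 1) minus the chow mean for the 47 members, in rows by amino acid, in each of the 20 mice, in columns by labelled diet and mouse number; red is above and blue below the chow mean. Acmsd is blue in all 15 HFD-fed mice and Agxt2 is red in all 15, fishmeal mouse 12 and salmon mouse 25 are red for most members, and fishmeal mice 14 and 20 are blue for Tat, Got1 and Gls2.

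Holding the clock score constant changed the size of most estimates without changing the side of 0 for the 9 called members. The log2FC of Gpt was 0.56 without and 0.33 with the score, that of Tdo2 0.59 and 0.53, that of Pccb 0.31 and 0.23, and that of Ftcd 0.34 and 0.18. The members' median was 0.20 without and 0.17 with the score. Agxt2 and Gldc were the 2 members whose adjusted p was under 0.05 with the score.

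**Figure D5:**
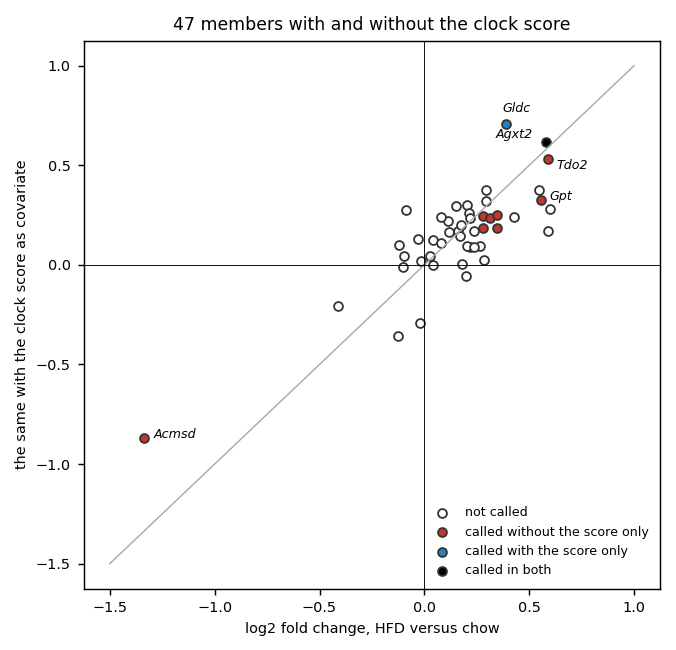
Log2FC of the 47 members in HFD-fed against chow-fed mice, without (horizontal axis) and with (vertical axis) the clock score as a covariate; the grey line marks equal values. Acmsd moves from -1.34 to -0.87 and loses its call, Agxt2 stays called at 0.62 and Gldc is called at 0.71.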

How the data were processed

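Liver RNA of 20 mice was sequenced with a strand-specific mRNA protocol. The authors trimmed reads with BBDuk, and the submitters' processing notes name HISAT2 1.2.1 and featureCounts 1.4.6-p1. The deposited counts are raw counts per Ensembl gene, and the deposited TPM table scales them to gene length and library size. The strand and multi-mapping settings are not given in the sources used here. Gene positions come from GENCODE M21 on GRCm38.

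Counts were tested with edgeR 4.0 in R 4.3, with TMM, filterByExpr at a minimum count of 10 and p-values adjusted by Benjamini-Hochberg over every gene tested. The 95% intervals use the normal approximation and are narrower than the test. The clock score used a prior count of 2. Similar transcripts were searched with blastn 2.17 at 90% identity over at least 200 bases. No pair of libraries of a diet held the same counts, and the 41 pairs had a mean chi-square of 35.1 to 457 over genes. Each library is 1 mouse, so the tests set the difference between groups against the spread between mice. Cage was not in any fit.

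Values by mouse are given for each member called in any comparison and, in a group with none called, for the member with the largest HFD estimate. The members, lists and tests were chosen with earlier results of these data known. Alternatives were DESeq2 1.42, other size factors and filters, a fit on all 4 groups, limma 3.58 on log2(TPM + 1) at a mean TPM of at least 0.5, the clock score as covariate, both assignments of mouse 31 and each mouse left out. The scripts were tested on simulated data.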

Additional observations from a re-analysis of the deposited data

Results flagged for a closer look

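In the members given by mouse, 6 of 52 sets of values, each set being 1 gene in 1 diet group, had a mouse far from the rest of its group, where chance gives about 1 in 20 sets. Beef mouse 32 was such a mouse for 3 genes. It had 185 CPM of Gpt against 291 CPM in the nearest beef-fed mouse, 295 CPM of Ftcd against 433 CPM, and 13.2 CPM of Acmsd against 7.62 CPM. Beef mouse 35, the library with the lowest share of protein coding counts, had 721 CPM of Glud1 against 1004 CPM in the nearest beef-fed mouse. Fishmeal mouse 12 had 368 CPM of Gpt against 269 CPM, and chow mouse 1 had 1320 CPM of Tdo2 against 885 CPM.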

How the results depend on the processing

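In HFD against chow, where 9 members were called, 5 were called on all genes with at least 1 count and 2 with the clock score as covariate, and 3 to 11 with each mouse left out (3 without chow mouse 2 or 7, 4 without chow mouse 1). DESeq2 called 13 and limma 6. Against chow, fishmeal (2 called) gave 9 with DESeq2, 4 on all genes with at least 1 count, 5 in a fit on all 4 groups, 1 with limma and 0 with the clock score, and 1 to 4 with each mouse left out (1 without chow mouse 2, 5 or 7 or fishmeal mouse 14 or 20, and 4 without fishmeal mouse 13). Salmon filet (4 called, and 4 with mouse 31 counted as salmon filet, where Ftcd was not called and Gldc was) gave 12 with DESeq2, 2 on all 4 groups, 2 with limma and 0 with the clock score, and 1 to 6 with each mouse left out (1 without chow mouse 2 or 7 or salmon mouse 26, and 2 without salmon mouse 22, 23 or 25). Beef (1 called) gave 7 with DESeq2, 2 on all 4 groups, 2 with mouse 31 counted as beef and 0 with the clock score. With each mouse left out beef gave 0 to 4. The count was 0 without chow mouse 2 or 7 or beef mouse 39 or 40, and 4 without beef mouse 32. Without beef mouse 35 it was 1, Agxt2 in place of Acmsd. The cause was not tested. Apart from HFD against chow with the clock score, where 1.76% of all genes were called, the share of all genes called in each alternative is not given here. A higher or lower count is therefore not a result about the members alone. Between the diets 0 members were called under every alternative run, and the median log2 fold change of the members in HFD against chow ranged from 0.14 to 0.22. No paired analysis was possible because the labels give no replicate number that diet groups share. Each library held at least 42526234 counts, and whether depth limits these comparisons was not tested.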

Other observations

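Prodh2 and Bckdha, chosen here after their values were seen, had their lowest values in the same mouse of 3 labelled groups. In chow mouse 1, fishmeal mouse 16 and beef mouse 32 they were at 55.3, 90.001 and 80.1 CPM for Prodh2 and 44.4, 70.6 and 71.3 CPM for Bckdha. In the salmon filet group as labelled the lowest values were in different mice, 112 CPM of Prodh2 in mouse 27 and 101.02 CPM of Bckdha in mouse 31, and in the fishmeal group the highest were too, 186 CPM of Prodh2 in mouse 13 and 190.1 CPM of Bckdha in mouse 12. Beef mouse 35, the library with 84.3% protein coding counts, had the highest values of both, 260.1 and 229 CPM. Mitochondrial genes took 10.4%, 9.799% and 9.2999% of the counts in chow mouse 1, fishmeal mouse 16 and beef mouse 32, the highest shares of the 20 libraries, and 5.89% in beef mouse 35, the lowest, and their part in these values was not tested. Mouse 31, whose diet is in conflict, had 116 CPM of Prodh2 and a clock score of 2.46, the highest of the HFD-fed mice.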
